A study of Mus musculus with 12 samples.

Results

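Expression of 10 genes of the intermediate filaments and the dystrophin complex was followed in colon and urinary bladder of mice that had lost YAP and TAZ in smooth muscle. The genes were *Des*, *Vim*, *Synm*, *Synpo2*, *Dmd*, *Utrn*, *Sgcb*, *Sgcd*, *Sgce*, and *Sspn*, chosen by name for their protein's place in the cell, 10 of the 54532 genes in the tables. The samples were 9 male mice aged 5 to 7 weeks, which gave 12 RNA sequencing libraries, 3 per genotype in each tissue, each from 1 mouse. All mice carried floxed *Yap1* (YAP) and *Wwtr1* (TAZ) alleles and all received tamoxifen, 1 mg per mouse per day in 5 injections. Y/T KO mice also carried Myh11CreERT2, a tamoxifen-activated Cre driven by the smooth muscle myosin heavy chain promoter, whereas Ctrl mice were Cre-negative. Tissues were taken on day 7 after the first dose. Because the transgene lies on the Y chromosome, the model is limited to males, and because the tissue was not sorted, each value mixes smooth muscle with epithelium, stroma, nerve, and blood vessels. In such tissue, fewer smooth muscle cells and less RNA per cell cannot be told apart.

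Intermediate filaments form a stress-bearing network that ties the dense bodies of a smooth muscle cell to each other and to the plasma membrane. At the membrane, dystrophin or its relative utrophin links cortical actin to dystroglycan, which binds laminin outside the cell. The sarcoglycans and sarcospan brace this link, and loss of dystrophin or of certain sarcoglycans causes muscular dystrophy. Desmin is the filament protein of muscle, vimentin that of mesenchymal cells, and both occur in visceral smooth muscle.

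The values are TPM, each gene's share of a library's transcripts after correction for transcript length, so that levels of different genes can be set side by side. Fold changes are on the log2 scale of TPM rescaled between libraries plus 0.1 TPM, which understates changes of low genes. They are given with their standard error (SE) and a *P* value from limma adjusted over all genes tested (adjusted *P*), and a gene was called at an adjusted *P* under 0.05. Groups are said not to overlap when all 3 libraries of one lie above all 3 of the other.

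Aligned sequence ran from 2.80 to 3.94 gigabases per library. TPM of *Yap1* was 45.8 to 54.9 in Ctrl colon and 41.3 to 47.0 in Y/T KO colon, which overlapped (log2 −0.17, SE 0.14, adjusted *P* = 0.697), and 98.6 to 110 in Ctrl bladder and 69.4 to 72.1 in Y/T KO bladder, which did not (log2 −0.54, SE 0.08, adjusted *P* = 0.0625). *Wwtr1* was not lower in Y/T KO tissue (log2 0.18, SE 0.16, adjusted *P* = 0.730 in colon and log2 0.24, SE 0.24, adjusted *P* = 0.678 in bladder). These whole-gene values from unsorted tissue do not show the floxed exons by themselves, so they do not check the deletion in smooth muscle. Urothelial markers summed to 4335 TPM or more in every bladder and to 31.5 TPM or less in every colon, and the 6 markers of intestinal epithelium were at least at 3281 TPM in sum in every colon. The summed TPM of 8 smooth muscle markers was 7216 to 7723 in Ctrl colon and 4462 to 5378 in Y/T KO colon, and 34229 to 44150 in Ctrl bladder and 16505 to 30388 in Y/T KO bladder.

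The bladder libraries differed in transcripts of striated muscle. *Myh4*, a myosin of fast skeletal fibers, stood at 409 TPM in Y/T KO bladder 783, 432 in Y/T KO bladder 780, and 46.1 in Ctrl bladder 784. The other 9 libraries, all colons included, listed it at 0. The summed TPM of 8 striated muscle markers was 6336 and 7017 in Y/T KO bladders 783 and 780, 1268 in Y/T KO bladder 782, and 1366 to 2011 in the Ctrl bladders, against 18.0 to 31.4 in the colons. In the bladders without *Myh4*, most of that sum was *Acta1* (915 to 1137 TPM). *Des*, *Dmd*, and the sarcoglycans are also expressed in skeletal muscle. Fold changes of the 10 genes in bladder are therefore given with all 6 libraries and again without the 3 that held *Myh4*, where the remaining 9 libraries entered one fit and the lone Y/T KO bladder was assumed to vary like the other groups.

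**Figure D1:**
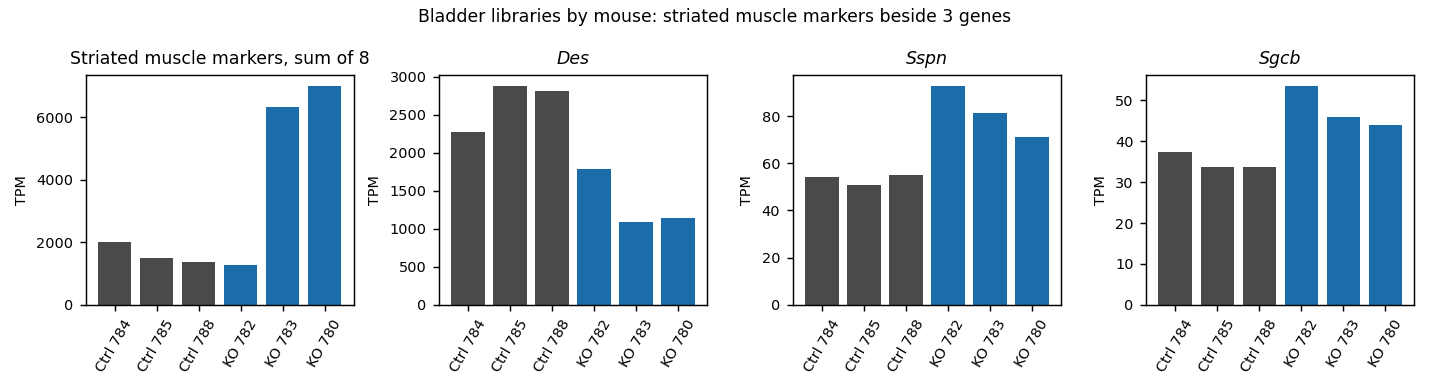
TPM in the 6 bladder libraries, from left to right the sum of 8 striated muscle markers, *Des*, *Sspn*, and *Sgcb*. Each bar is 1 mouse (gray, Ctrl and blue, Y/T KO), and Y/T KO mouse 782 resembled the Ctrl mice in striated markers (1268 TPM) but stood above all Ctrl mice in *Sspn* (93.0 TPM) and *Sgcb* (53.6 TPM).

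YAP and TAZ act through TEAD factors, which bind GGAATG, and muscle genes are often driven by serum response factor through the CArG box. The 250 bases upstream of the RefSeq start sites (GRCm38.p6) were available for 9 of the 10 genes, as 11 windows; *Sgce* was not matched. The windows printed here are those of *Synm* (chr7:67759743-67759992, minus strand) and *Synpo2* (chr3:123236150-123236399, minus strand), the pair with the lowest fold changes in Y/T KO colon, of *Sspn* (chr6:145933872-145934121, plus strand), which was higher in Y/T KO bladder, and of the muscle transcript of *Dmd* (chrX:82948620-82948869, plus strand). Each is written 5′ to 3′ on the strand of its gene and ends at the base before the start site, and capitals mark GGAATG or its reverse complement CATTCC and the CArG box.
Synm: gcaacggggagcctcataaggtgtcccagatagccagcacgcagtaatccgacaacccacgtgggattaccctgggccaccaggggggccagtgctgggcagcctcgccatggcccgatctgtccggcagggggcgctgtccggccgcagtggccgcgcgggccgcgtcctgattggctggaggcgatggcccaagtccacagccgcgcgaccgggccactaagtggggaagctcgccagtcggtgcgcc
Synpo2: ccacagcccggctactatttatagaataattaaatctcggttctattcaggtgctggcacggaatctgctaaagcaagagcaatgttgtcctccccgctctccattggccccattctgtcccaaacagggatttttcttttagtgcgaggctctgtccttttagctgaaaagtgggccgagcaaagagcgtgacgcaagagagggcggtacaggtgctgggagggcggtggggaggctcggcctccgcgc
Sspn: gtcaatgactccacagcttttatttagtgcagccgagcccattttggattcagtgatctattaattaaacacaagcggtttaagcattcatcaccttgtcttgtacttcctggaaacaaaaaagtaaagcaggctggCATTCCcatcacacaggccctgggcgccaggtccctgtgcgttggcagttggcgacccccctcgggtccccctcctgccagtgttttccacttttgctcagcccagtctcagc
Dmd: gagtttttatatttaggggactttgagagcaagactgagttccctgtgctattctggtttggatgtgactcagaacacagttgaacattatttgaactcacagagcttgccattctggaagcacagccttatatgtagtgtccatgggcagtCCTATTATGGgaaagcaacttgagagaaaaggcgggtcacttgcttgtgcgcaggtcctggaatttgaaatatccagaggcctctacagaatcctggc

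GGAATG on either strand was in 3 of the 11 windows, both windows of *Sspn* and that of *Sgcd*, and in 12.64% of the 32851 windows of that length in RefSeq. In the *Sspn* window shown it lay on the opposite strand and began 113 bases before the start site. A CArG box was in 1 of 11 windows, that of *Dmd*, beginning 98 bases upstream, and in 1.467% of all windows. The windows of *Synm* and *Synpo2* held neither. CANNTG, the E box, was in 7 of 11 windows and in 66.22% of all windows. These are matches of letters within short windows and do not show binding.

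The 10 genes covered more than 2 orders of magnitude in TPM, with the filament proteins at the top in both tissues. In Ctrl bladder the mean TPM was 2657 ± 336 (SD, n = 3) for *Des*, 693 ± 65.1 for *Vim*, 388 ± 81.8 for *Synpo2*, and 288 ± 23.1 for *Synm*, and these 4 genes did not overlap their neighbors in that order. They were followed by *Sgce* (97.9 ± 7.92), *Sspn* (53.4 ± 2.22), *Utrn* (53.1 ± 13.1), *Sgcb* (34.9 ± 2.13), *Sgcd* (23.4 ± 3.51), and *Dmd* (21.5 ± 2.98). Here *Sspn* and *Utrn* overlapped each other, as did *Sgcd* and *Dmd*. In Ctrl colon *Des* (649 ± 111) and *Vim* (298 ± 13.3) again led without overlap, *Synpo2* (68.0 ± 10.8) and *Synm* (64.5 ± 12.3) overlapped, and *Utrn* (38.1 ± 10.2) overlapped *Sgce* (29.1 ± 2.91). *Sspn* (11.9 ± 2.08), *Dmd* (11.4 ± 3.60), and *Sgcb* (10.9 ± 2.07) could not be ordered within their spread, and *Sgcd* (5.33 ± 1.46) was lowest. *Utrn* thus held a higher place in colon, above *Sgce*, than in bladder, below it.

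Colon had less of nearly all of these transcripts than bladder. In Ctrl mice 8 of the 10 genes were called lower in colon, where 25.3% of the 18445 genes tested were called lower, and the median of the 10 was −1.63 on the log2 scale, against 0.03 over all genes. *Synpo2*, an actin-binding protein of Z-discs and dense bodies, differed most (log2 −2.24, SE 0.17, adjusted *P* = 5.46e-05), followed by *Synm* and *Sspn* (log2 −1.91 each, adjusted *P* = 2.82e-05 and 3.38e-05). *Sgcd* (−1.88), *Des* (−1.78), *Sgce* (−1.49), *Sgcb* (−1.42), and *Vim* (−0.95) were also called. *Dmd* did not pass (log2 −0.70, SE 0.26, adjusted *P* = 0.0573), although its groups did not overlap, and *Utrn* overlapped between tissues (log2 −0.22, SE 0.23, adjusted *P* = 0.471). On leaving out a library, *Dmd* was not called (adjusted *P* from 0.0505 to 0.137). Without the libraries that held *Myh4* its log2 difference was −0.65. *Dmd* was called with all 12 libraries in one fit (log2 −0.70, adjusted *P* = 0.0413), with FPKM (log2 −0.82, adjusted *P* = 0.0324), and with the TPM as deposited, without rescaling (log2 −0.96, adjusted *P* = 0.0212). The last setting moved the median of all genes to −0.23, and the calls over all genes from 4665 lower and 4694 higher to 5886 lower and 3277 higher. In the main fit, all 8 smooth muscle markers and all 6 fibroblast markers were also called lower in Ctrl colon (list medians −2.16 and −1.85). All 6 markers of intestinal epithelium were called higher there (median 7.00). The part of the tissues' cell makeup in the values of the 10 genes was not tested.

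Among Y/T KO mice, 9 of 10 genes were called lower in colon than in bladder (25.2% of 18424 genes tested were called lower), with a median of −1.60 against 0.02 over all genes. *Synpo2* (log2 −2.92, SE 0.15, adjusted *P* = 1.08e-05), *Sspn* (−2.51, SE 0.14), and *Synm* (−2.38, SE 0.16) had the widest gaps. *Utrn*, again the exception, had a log2 difference of 0.07 (SE 0.22, adjusted *P* = 0.813). Without the 3 libraries that held *Myh4* the same counts were obtained, 8 in Ctrl and 9 in Y/T KO mice. *Utrn* was then at −0.05 (SE 0.23, adjusted *P* = 0.876) in Ctrl and at 0.45 (SE 0.29, adjusted *P* = 0.269) in Y/T KO mice.

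**Figure D2:**
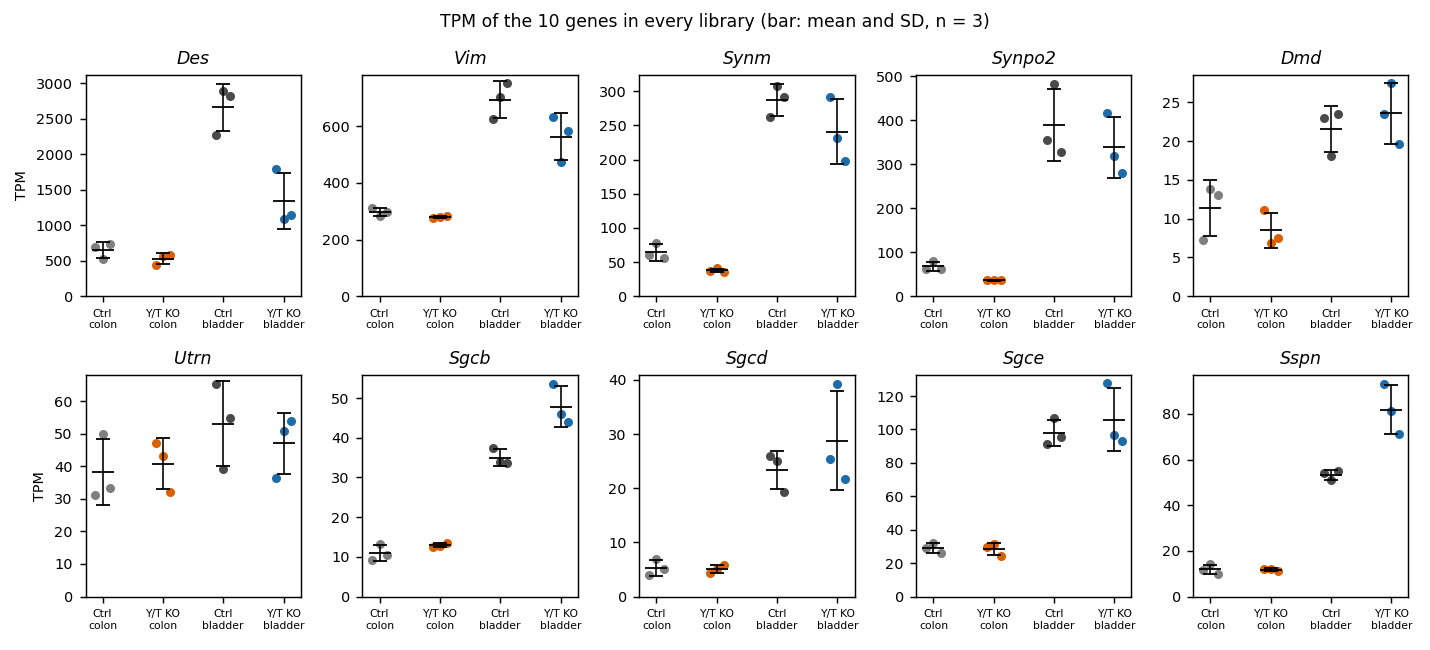
TPM of each gene in every library, by genotype and tissue. Points are mice, and the bar gives mean and SD (n = 3). The vertical axes start at 0 and differ between panels. *Synm* and *Synpo2* in colon and *Des*, *Sgcb*, and *Sspn* in bladder are among the genes whose genotypes did not overlap, whereas *Utrn* overlapped between genotypes in both tissues.

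In the colon, *Synm* and *Synpo2* had the lowest fold changes of the 10 genes, while the estimates for the sarcoglycans, sarcospan, and vimentin were within 0.29 log2 units of Ctrl. None of the 10 genes was called (24 of 17500 genes tested were called, 0.137%). At an unadjusted *P* under 0.05 there were 2, both lower, where 4.59% of all genes were lower by that rule. The groups did not overlap for 3 of the 10 genes, where 16.1% of all genes did not overlap; 2 of these were lower and 1 higher, where the shares over all genes were 7.87% and 8.24%. The median fold change of the 10 was −0.03, against 0.01 over all genes.

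Desmin transcripts overlapped between genotypes in colon. TPM of *Des* was 692, 523, and 732 in Ctrl mice 788, 786, and 787, and 445, 561, and 580 in Y/T KO mice 759, 783, and 780. Ctrl mouse 786 fell among the Y/T KO mice (log2 −0.25, SE 0.21, adjusted *P* = 0.712). *Vim* was 311, 285, and 297 in Ctrl colon and 277, 280, and 284 in Y/T KO colon. All 6 libraries lay within a narrow band, and the 95% confidence interval of the log2 difference ran from −0.37 to 0.27 (estimate −0.05, SE 0.14, adjusted *P* = 0.923).

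Synemin is a large filament protein that copolymerizes with desmin or vimentin and binds dystrophin and utrophin. TPM of *Synm* was 59.7, 78.5, and 55.2 in Ctrl colon and 36.6, 40.9, and 35.7 in Y/T KO colon. Every Y/T KO library was below every Ctrl library (log2 −0.72, SE 0.14, adjusted *P* = 0.187). *Synpo2* showed the same arrangement, with 61.1, 80.4, and 62.6 in Ctrl and 35.8, 37.6, and 35.9 in Y/T KO colon (log2 −0.85, SE 0.13, adjusted *P* = 0.0851). The 3 Y/T KO mice differed little in *Synpo2* (SD 0.994 TPM), and the highest of them was well below the lowest Ctrl mouse. Neither gene passed the correction over all genes in this fit to TPM. The authors' own DESeq2 analysis named *Synm* among the transcripts down-regulated in both colon and bladder. The smooth muscle markers moved the same way in colon: 6 of 8 did not overlap, all lower, where 7.87% of all genes were lower without overlap. Their list median was −0.49, against 0.01 over all genes. The part of this shift in the values of *Synm* and *Synpo2* was not tested.

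*Dmd* and *Utrn* encode the paired anchors of the complex, dystrophin being the muscle form and utrophin the widely expressed one. TPM of *Dmd* was 7.21, 13.8, and 13.0 in Ctrl colon and 11.1, 6.86, and 7.53 in Y/T KO colon, with Ctrl mouse 788 among the Y/T KO mice (log2 −0.35, SE 0.29, adjusted *P* = 0.708). *Utrn* was 31.2, 49.8, and 33.4 in Ctrl and 47.1, 43.3, and 32.1 in Y/T KO colon (log2 0.15, SE 0.20, adjusted *P* = 0.824). Neither gene separated the genotypes. The coding transcripts of *Dmd* range from 1858 to 14910 bases in GENCODE M21, and a TPM summed over a gene does not tell them apart.

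The sarcoglycans span the membrane beside dystroglycan, and *Sgce* encodes the form that is widely expressed outside skeletal muscle. *Sgcb* was 9.16, 13.2, and 10.4 in Ctrl colon and 12.5, 12.8, and 13.5 in Y/T KO colon. Ctrl mouse 786 (13.2) lay within the Y/T KO range on the TPM scale, and only after rescaling between libraries did the groups not overlap (log2 0.29, SE 0.17, adjusted *P* = 0.612). *Sgcd* (3.96, 6.86, and 5.16 against 4.33, 5.05, and 5.91) and *Sgce* (29.0, 32.1, and 26.2 against 29.7, 31.6, and 24.4) overlapped fully, with log2 differences of −0.00 and 0.01 (adjusted *P* = 0.999 and 0.994). *Sspn*, the tetraspan partner of the sarcoglycans, was 11.5, 14.2, and 10.1 in Ctrl and 11.9, 12.2, and 11.2 in Y/T KO colon (log2 0.03, 95% confidence interval −0.34 to 0.41, adjusted *P* = 0.958).

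**Figure D3:**
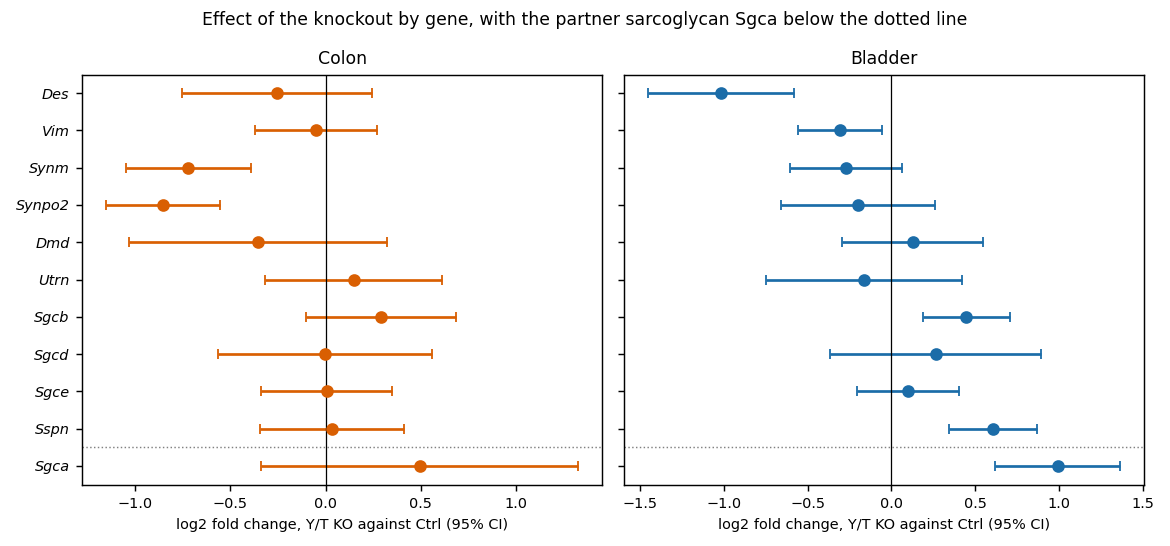
Log2 fold change of Y/T KO against Ctrl in colon (left) and bladder (right) from limma, with 95% confidence intervals. The 10 genes stand above the dotted line, and the partner sarcoglycan *Sgca* below it. *Synm* and *Synpo2* lie lowest in colon (−0.72 and −0.85), *Des* lies lowest in bladder (−1.02), and *Sspn* lies highest of the 10 genes in bladder (0.61).

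The bladder showed another arrangement: *Des* was at about a single log2 unit below Ctrl, *Sspn* and *Sgcb* were above Ctrl, and *Synm* and *Synpo2* overlapped. None of the 10 genes was called there (55 of 18237 genes tested were called, 0.302%). At an unadjusted *P* under 0.05 there were 2 lower and 2 higher, where 8.20% and 6.64% of all genes met that rule. The same 4 genes had groups without overlap, where 22.0% of all genes did not overlap. The median of the 10 was −0.03, against 0.00 over all genes.

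TPM of *Des* was 2271, 2884, and 2816 in Ctrl bladders 784, 785, and 788, and 1792, 1089, and 1140 in Y/T KO bladders 782, 783, and 780. All Y/T KO bladders were below all Ctrl bladders (log2 −1.02, SE 0.18, adjusted *P* = 0.103), and the mice that held *Myh4* were below mouse 782. Without mouse 782, *Des* was called (log2 −1.22, adjusted *P* = 0.0287), and without the 3 libraries that held *Myh4* the difference was −0.69 (SE 0.30, adjusted *P* = 0.982). *Vim* was 624, 701, and 754 in Ctrl and 634, 473, and 583 in Y/T KO bladder. On the TPM scale mouse 782 lay just above the lowest Ctrl mouse, and after rescaling the groups did not overlap (log2 −0.31, SE 0.10, adjusted *P* = 0.262). Without the libraries with *Myh4* the difference was −0.22 (SE 0.19, adjusted *P* = 1.00).

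*Synm* was 263, 308, and 292 in Ctrl bladder and 292, 231, and 199 in Y/T KO bladder, where mouse 782 was level with the Ctrl mice (log2 −0.27, SE 0.14, adjusted *P* = 0.413). *Synpo2* was 354, 481, and 328 in Ctrl and 416, 318, and 280 in Y/T KO bladder (log2 −0.20, SE 0.19, adjusted *P* = 0.667). Without the libraries that held *Myh4*, the log2 difference was −0.06 (SE 0.19) for *Synm* and 0.04 (SE 0.24) for *Synpo2*, so that the sign of the second turned. For both genes, the Y/T KO bladders low in these transcripts were those with striated muscle transcripts and with the lower sums of smooth muscle markers, 20536 TPM in mouse 783 and 16505 in mouse 780 against 30388 in mouse 782. The part of either in these values was not tested.

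*Dmd* was 22.9, 18.1, and 23.5 in Ctrl bladder and 23.5, 27.5, and 19.6 in Y/T KO bladder (log2 0.13, SE 0.18, adjusted *P* = 0.774). *Utrn* was 65.3, 39.3, and 54.9 in Ctrl and 36.5, 50.8, and 54.1 in Y/T KO bladder (log2 −0.16, SE 0.24, adjusted *P* = 0.792). Without the libraries that held *Myh4*, the log2 difference was 0.17 (SE 0.41) for *Dmd* and −0.37 (SE 0.30) for *Utrn* (adjusted *P* = 1.00 for each). Both anchors overlapped between genotypes, and the lowest and highest mice were not the same for the 2 genes.

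Of the sarcospan and sarcoglycan transcripts, those of *Sspn* and *Sgcb* were higher in each Y/T KO bladder than in any Ctrl bladder, and those of *Sgcd* and *Sgce* overlapped. *Sspn* was 54.3, 50.9, and 55.0 in Ctrl bladder and 93.0, 81.5, and 71.2 in Y/T KO bladder (log2 0.61, SE 0.11, adjusted *P* = 0.106). *Sgcb* was 37.4, 33.8, and 33.6 in Ctrl and 53.6, 45.9, and 43.9 in Y/T KO bladder (log2 0.45, SE 0.11, adjusted *P* = 0.163). Both genes were highest in mouse 782, in which *Myh4* was listed at 0. Without the 3 libraries with *Myh4* the log2 differences were larger, 0.79 (SE 0.21, adjusted *P* = 0.573) and 0.64 (SE 0.22, adjusted *P* = 0.892). *Sgcd* was 25.9, 24.9, and 19.4 in Ctrl and 25.4, 39.2, and 21.8 in Y/T KO bladder, and *Sgce* was 91.6, 107, and 95.4 in Ctrl and 128, 96.8, and 93.3 in Y/T KO bladder. In each of these a single Y/T KO mouse stood above the Ctrl range, mouse 783 for *Sgcd* and mouse 782 for *Sgce* (log2 0.26 and 0.10, adjusted *P* = 0.676 and 0.745). Without the libraries with *Myh4* these differences were 0.18 (SE 0.34) and 0.31 (SE 0.20), with an adjusted *P* of 1.00 for each.

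*Sgca*, which encodes α-sarcoglycan of striated muscle, was not among the 10 genes and was named after its values were seen. Its TPM was 19.8, 15.9, and 17.6 in Ctrl bladder and 43.6, 29.3, and 34.6 in Y/T KO bladder, without overlap (log2 0.99, SE 0.16, adjusted *P* = 0.0838). As with *Sspn* and *Sgcb*, mouse 782, without *Myh4*, was the highest, and without the 3 libraries that held *Myh4* the difference was 1.35 (SE 0.48, adjusted *P* = 0.896). In colon it was 2.25, 2.48, and 5.18 in Ctrl and 3.64, 4.66, and 4.59 in Y/T KO mice, which overlapped (log2 0.49, SE 0.36, adjusted *P* = 0.677).

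The summed TPM of *Sgcb*, *Sgcd*, and *Sgce* was 155, 166, and 148 in Ctrl bladder and 207, 182, and 159 in Y/T KO bladder, and 42.1, 52.1, and 41.8 in Ctrl colon and 46.6, 49.4, and 43.7 in Y/T KO colon. The groups overlapped in both tissues. *Sgcb* made up 24.1%, 20.4%, and 22.7% of that sum in Ctrl bladder and 26.0%, 25.2%, and 27.6% in Y/T KO bladder. In colon its share was 21.8%, 25.3%, and 25.0% in Ctrl mice and 26.9%, 25.9%, and 30.8% in Y/T KO mice. The share of *Sgcb* was thus higher in each Y/T KO library than in any Ctrl library of the same tissue, by a small margin in colon, and *Sgce* was the most abundant of the 3 in all 12 libraries. These shares were chosen after the values were seen and were not tested.

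**Figure D4:**
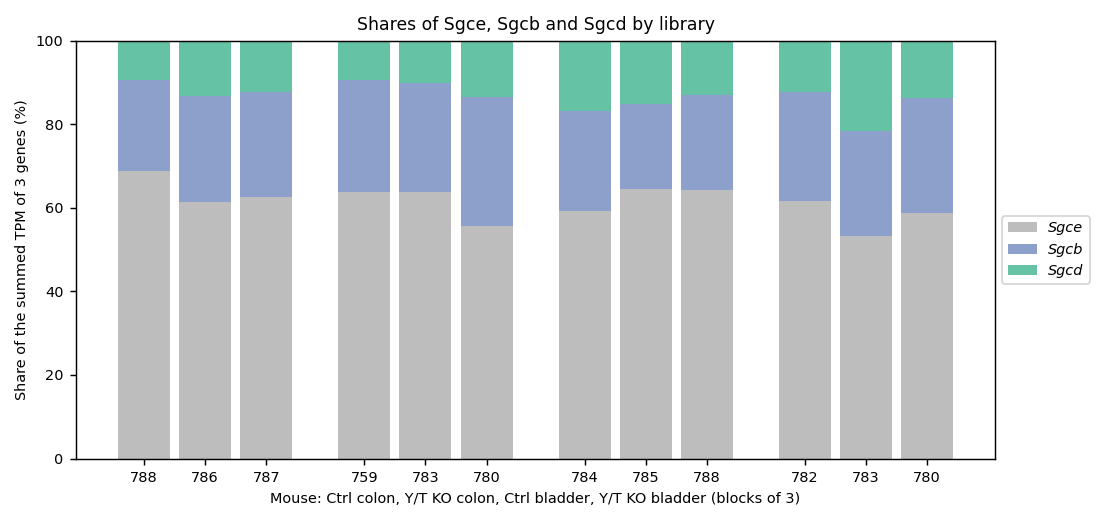
Share (%) of *Sgce*, *Sgcb*, and *Sgcd* in the summed TPM of these 3 genes in a library. Bars are mice in blocks of 3, from left Ctrl colon, Y/T KO colon, Ctrl bladder, and Y/T KO bladder, and colors are genes. The share of *Sgcb* was 21.8% to 25.3% in Ctrl colon and 25.9% to 30.8% in Y/T KO colon, and 20.4% to 24.1% and 25.2% to 27.6% in bladder.

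The other dystrophin complex partners include dystroglycan, syntrophins, dystrobrevins, and laminins. No partner was called in colon, and none was called lower in bladder. The median of the 16 tested in colon was 0.01 (all genes, 0.01) and of the 17 in bladder −0.10 (all genes, 0.00). Among those without overlap in colon were *Dtna*, α-dystrobrevin (log2 −1.17, SE 0.32, adjusted *P* = 0.371), and *Nos1*, neuronal nitric oxide synthase (log2 −0.70, SE 0.31, adjusted *P* = 0.530). Between the tissues of Ctrl mice, 15 of 17 partners were called lower in colon and 1 higher, with a median of −1.52 (25.3% of all genes were called lower).

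The enzymes that glycosylate dystroglycan, without which it does not bind laminin, had no called gene among 17 in either tissue. Their median was 0.08 in colon and −0.06 in bladder. *Dpm2* did not overlap in colon (log2 0.21, adjusted *P* = 0.649). In bladder, *Dpm1* (0.90, adjusted *P* = 0.148) and *Dpm3* (−0.65, adjusted *P* = 0.141) had the largest differences without overlap, and without the libraries that held *Myh4* these were 1.09 (SE 0.86) and −0.49 (SE 0.64).

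Plakins, filamins, α-actinin, and the small heat shock proteins link or protect the filaments. None of the 19 tested was called in either tissue, but 7 in colon and 8 in bladder did not overlap, all lower (7.87% and 11.4% of all genes did not overlap and were lower). Their medians were −0.31 and −0.26. The smooth muscle markers moved the same way, with 6 of 8 lower without overlap in colon (median −0.49) and 4 of 8 in bladder (median −0.67), and their part in these values was not tested. *Flnc*, filamin C, was among the largest in both, with a log2 difference of −0.93 (SE 0.25, adjusted *P* = 0.356) in colon and −1.22 (SE 0.26, adjusted *P* = 0.146) in bladder. In colon it stood between *Dtna* (−1.17) and the chaperone gene *Cryab* (−0.66, adjusted *P* = 0.404). In bladder it stood between *Actn1* (−1.25, adjusted *P* = 0.179) and the chaperone gene *Hspb1* (−0.77, adjusted *P* = 0.141). Without the libraries that held *Myh4*, the bladder differences were −1.27 (SE 0.44) for *Flnc*, −0.84 (SE 0.18) for *Actn1*, and −0.59 (SE 0.33) for *Hspb1*, with adjusted *P* values of 0.892, 0.375, and 1.00.

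Among 14 other intermediate filament genes, none was called in either tissue. In bladder, 7 were lower without overlap and 1 was higher, where 11.4% of all genes were lower without overlap. In colon, 1 was lower and 2 were higher without overlap, where the shares over all genes were 7.87% and 8.24%. *Nes*, nestin, a partner of vimentin and desmin filaments, did not overlap in either tissue and was higher in Y/T KO mice. Its TPM was 4.92, 4.34, and 3.90 in Ctrl colon and 7.14, 16.0, and 13.2 in Y/T KO colon (log2 1.41, SE 0.31, adjusted *P* = 0.241), and 15.8, 19.9, and 16.9 in Ctrl bladder and 31.1, 44.1, and 25.3 in Y/T KO bladder (log2 0.90, SE 0.23, adjusted *P* = 0.179). Without mouse 759, the Y/T KO colon lowest in *Nes*, the gene was called in colon (log2 1.75, adjusted *P* = 0.0394). Over the omissions of each library in turn, the log2 difference ran from 1.18 to 1.75 and the adjusted *P* from 0.0394 to 0.630. *Gfap* (0.87, adjusted *P* = 0.413), a glial filament, and *Nefl* (−0.54, adjusted *P* = 0.590), a neurofilament, had the next largest differences without overlap in colon. In bladder the lamins *Lmna* and *Lmnb2* were lower without overlap (log2 −0.98 each, adjusted *P* = 0.101 and 0.103), and *Lmnb2* passed with all 12 libraries in one fit (adjusted *P* = 0.0391). Without the libraries that held *Myh4*, the log2 difference was −0.61 (SE 0.52, adjusted *P* = 1.00) for *Lmna*, −0.84 (SE 0.26, adjusted *P* = 0.746) for *Lmnb2*, and 0.73 (SE 0.43, adjusted *P* = 1.00) for *Nes*.

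The difference between the knockout effects in colon and bladder was tested as an interaction over all 12 libraries. None of the 10 genes was called (8 of 16298 genes tested were called, 0.0491%), and at an unadjusted *P* under 0.05 there were 3 lower and 1 higher, where 5.15% and 7.49% of all genes met that rule. The effect on *Des* was higher in colon than in bladder by 0.76 log2 units (SE 0.30, adjusted *P* = 0.332), and by 0.44 (SE 0.36, adjusted *P* = 0.880) without the 3 libraries that held *Myh4*. For *Synpo2*, *Sspn*, and *Synm* it was lower in colon than in bladder, by −0.65 (SE 0.23, adjusted *P* = 0.294), −0.57 (SE 0.17, adjusted *P* = 0.252), and −0.45 (SE 0.19, adjusted *P* = 0.373). Without the 3 libraries that held *Myh4* these differences were wider, at −0.89, −0.75, and −0.66, with a lone Y/T KO bladder left. For the other 6 genes the unadjusted *P* was 0.144 or more.

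Ratios of TPM within a library do not depend on its scaling, and 9 ratios were compared in each tissue. The exact permutation test, two-sided, has 0.10 as its smallest *P* for 3 libraries against 3, and after adjustment over the 18 tests the lowest value was 0.3. The ratio of *Des* to *Myh11*, smooth muscle myosin, was 1.95, 1.16, and 1.95 in Ctrl colon and 2.36, 2.45, and 3.46 in Y/T KO colon, so that desmin transcripts were higher relative to myosin in each Y/T KO colon. In bladder the same ratio went the other way, from 0.926, 1.09, and 1.14 in Ctrl to 0.658, 0.569, and 0.760 in Y/T KO mice. On the log2 scale the changes were 0.73 and −0.67, both without overlap (exact permutation *P* = 0.1 each, the smallest possible). TPM of *Myh11* itself was 355, 452, and 377 in Ctrl colon and 189, 229, and 168 in Y/T KO colon, without overlap. In bladder *Myh11* overlapped, with 2454, 2652, and 2479 in Ctrl and 2722, 1915, and 1499 in Y/T KO mice. *Des* overlapped in colon and was lower without overlap in bladder, so the rise in colon does not mean more *Des*.

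*Synm* relative to *Des* was 0.0862, 0.150, and 0.0754 in Ctrl colon and 0.0823, 0.0729, and 0.0616 in Y/T KO colon, which overlapped (log2 −0.47, exact permutation *P* = 0.2). In bladder it was 0.116, 0.107, and 0.104 in Ctrl and 0.163, 0.213, and 0.174 in Y/T KO mice without overlap (log2 0.75, exact permutation *P* = 0.1). Relative to *Vim*, *Synm* was lower without overlap in colon (log2 −0.67) and overlapped in bladder (0.03). Relative to *Myh11*, it was slightly higher without overlap in colon (log2 0.26) and overlapped in bladder (0.08), while *Synpo2* to *Myh11* overlapped in both (0.13 and 0.15). *Des* to *Vim* was lower in bladder without overlap (log2 −0.71) and overlapped in colon (−0.21). *Utrn* to *Dmd*, *Dmd* to *Myh11*, and *Vim* to *Col1a1* overlapped in both tissues, with log2 changes of 0.50, 0.63, and −0.55 in colon and −0.29, 0.48, and 0.44 in bladder.

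**Figure D5:**
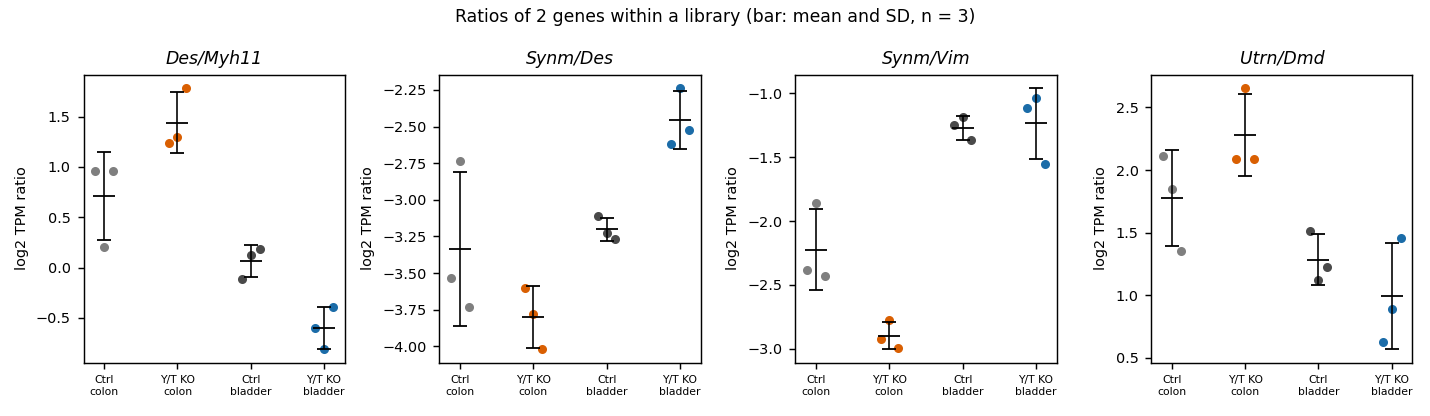
Log2 ratio of the TPM of 2 genes within each library, by genotype and tissue. Points are mice, and the bar gives mean and SD (n = 3). *Des*/*Myh11* was higher in Y/T KO colon (log2 change 0.73) and lower in Y/T KO bladder (−0.67), and *Synm*/*Des* was higher in Y/T KO bladder (0.75).

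For 4 of the genes, the 3 genes with the most similar values were sought among 16298 genes, by the root mean square difference of log2 values over the 12 libraries after each tissue's mean was removed. For *Synm* these were *Mylk* (0.12), *Synpo2* (0.12), and *Lpp* (0.13), against a median of 0.41 over all genes. For *Des* they were *Bdh1* (0.14), *Cnn1* (0.15), and *Tagln* (0.15; median 0.52). *Vim* was closest to *Fuk* (0.07), *Ccar2* (0.08), and *Pom121* (0.08; median 0.30), and *Dmd* to *Nsdhl*, *Zfp148*, and *Zfp955b* (0.15 each; median 0.42). *Synpo2* was thus second among all genes for *Synm* by this measure.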

How the data were processed

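RNA of 12 libraries (3 per genotype and tissue, from 9 mice) was prepared by the authors as stranded polyadenylated libraries. The processing notes of the submitters name bcl2fastq, FastQC, HISAT2, StringTie, and DESeq2, without versions, and GRCm38. Each deposited table gives TPM, FPKM, and coverage per gene, made by the authors with StringTie. The deposited TPM was analyzed. The FPKM made by the authors was an alternative, and the ratio of deposited coverage to FPKM gave the aligned bases. Tables of read counts were not used here, so the counting error of single values is unknown.

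Rows were summed by gene ID. TPM was divided by median-of-ratios size factors, 0.1 was added, and genes that reached 0.5 TPM in 3 or more libraries of a fit were tested with limma 3.58.1 in R 4.3.3 (trend and robust eBayes, two-sided, Benjamini-Hochberg). All 10 genes passed this filter in every comparison. The 10 genes and the lists were chosen with earlier results of these data known. Named are all 10 genes and, for the knockout effect, the called genes of each list, or else the 3 largest differences without overlap. Tissue differences of the lists are given as counts. Some genes of the lists are not reported here by name.

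Mice 788, 783, and 780 gave both tissues, so mouse numbers in the labels pair libraries. Deviations from the group means correlated by −0.02, 0.09, and 0.06 within these mice over 16298 genes, and the mouse as a block was an alternative. Other alternatives were other pseudocounts and filters, values as deposited, one fit for all libraries, no trend or robust options, an adjusted *P* of 0.1, each library left out and, after seeing the data, the 9 libraries without *Myh4*. The scripts were tested on simulated data. Promoter windows come from RefSeq (GRCm38.p6). Coordinates of all 10 genes were the same in the tables and GENCODE M21. *Des*, *Synm*, and *Sspn* overlap exons of genes on the opposite strand. Figures and ratios were made with Python 3.11.15, pandas 2.3.3, scipy 1.17.1, and matplotlib 3.10.9.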

Additional observations from a re-analysis of the deposited data

Results flagged for a closer look

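Changes in 2 within-library ratios differed between the tissues. The test was added after the ratios had been seen, and it permuted the genotype labels within each tissue (400 arrangements, two-sided, smallest possible *P* 0.005) and was adjusted over 9 ratios. Labels were permuted in each tissue separately, so the 3 mice that gave both tissues could receive different genotypes in them. The *P* values thus ignore this pairing. Both ratios hold *Des*, so the 2 results are not independent of each other. The log2 change of *Des*/*Myh11* was higher in colon than in bladder by 1.40 (exact permutation *P* = 0.005, adjusted *P* = 0.045), the change being 0.73 in colon and −0.67 in bladder. Without the 3 bladder libraries that held *Myh4* this difference was 1.48, and leaving out any 1 library gave 1.15 to 1.52. That of *Synm*/*Des* was −1.21 in the same direction of subtraction (exact permutation *P* = 0.01, adjusted *P* = 0.045), with −1.10 without those libraries and −1.41 to −0.91 on leaving out any 1. For both ratios, the bladder change without those libraries rested on the lone Y/T KO mouse 782, and the difference was not tested. The other 7 ratios had adjusted *P* values from 0.06 to 0.92. For *Des*/*Myh11*, it was *Myh11* that was lower without overlap in Y/T KO colon, where *Des* overlapped. In bladder *Des* was lower without overlap and *Myh11* overlapped.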

How the results depend on the processing

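Of the 10 genes, the counts called lower in colon than in bladder stayed at 8 to 9 in Ctrl and at 9 in Y/T KO mice under every alternative run. For the knockout effect no alternative called any of the 10, except *Synpo2* in colon at an adjusted *P* under 0.1 (1 gene, adjusted *P* = 0.0851) and *Des* in bladder without mouse 782, so that leaving out libraries gave 0 to 1 called there. Calls over all genes were less stable. In colon (24) there were 6 without a filter, 42 at an adjusted *P* under 0.1, 71 with all 12 libraries in one fit, 73 with the replicate block on mouse in that fit, and 5 to 63 on leaving out a library. In bladder (55) there were 140 at 0.1, 9 without the libraries that held *Myh4*, and 11 to 51 on leaving out a library. The interaction (8) had 19 at 0.1 and 6 to 25 on leaving out a library, and Y/T KO colon against bladder (9368) had 5884 without the libraries with *Myh4*. *Lmnb2* in bladder and *Dmd* between Ctrl tissues were called with all 12 libraries in one fit, and with the block on mouse in that fit (adjusted *P* = 0.0399 and 0.0377). Against the same fit without it, the block changed no call of the genes named here.

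Among the results given with a value, signs turned only for log2 estimates of 0.27 or less in size. With TPM as deposited, *Sgce* in colon was −0.031, *Sspn* in colon −0.0023, and *Utrn* between Y/T KO tissues −0.21. With FPKM, *Sgcd* in colon was 0.029 and *Utrn* between Y/T KO tissues −0.016. Without the libraries that held *Myh4*, *Synpo2* in bladder was 0.039. On leaving out a library, ranges that crossed 0 in colon were −0.14 to 0.0042 for *Vim*, −0.17 to 0.13 for *Sgcd*, −0.064 to 0.11 for *Sgce*, and −0.042 to 0.10 for *Sspn*. In bladder they were −0.018 to 0.26 for *Dmd*, −0.36 to 0.039 for *Utrn*, −0.0081 to 0.45 for *Sgcd*, −0.012 to 0.19 for *Sgce*, and −0.067 to 0.19 for *Synm*/*Vim*. For the interaction they were −0.45 to 0.0059 for *Sgcd* and −0.18 to 0.018 for *Sgce*, and between Y/T KO tissues −0.13 to 0.24 for *Utrn*. The causes were not tested. With 3 mice per group, differences as large as those of *Synm* in colon and *Sspn* in bladder did not pass, so an overlap of groups does not show equal levels.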
